A study of Homo sapiens with 2 samples.

Results

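The 32 genes described here belong to the interferon response and to antigen presentation by MHC class I. They were taken by name and not by a cut on their values, though earlier results of these data were known. A gene's models were those whose RefSeq identifier maps to its symbol, older or current, on the main chromosomes, together with assembled models that share an exact intron with it on the same strand. All 32 were found, of 23277 named genes in the 2 files, and RIGI is listed there under its older symbol DDX58. The data are polyA RNA-seq of HCT116, an established colorectal carcinoma line, with 1 library labelled control and 1 labelled USP49 knockdown. USP49 is a deubiquitinase, and the growth protocol attached to both libraries names an HCT116 line that carries a tetracycline-inducible knockdown of it (the T-Rex system), kept in blasticidin and puromycin. Harvest was 36 h after doxycycline. Both entries carry this treatment text, the series title calls the comparison cells wild type, and whether the control received doxycycline is not given in the sources used here. The labels do not say whether the line is 1 clone. With 1 library per group there is no replicate check, so every interval below covers counting error only and no test between conditions was made.

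Cells recognise foreign RNA in the cytosol through helicase sensors, RIG-I (from RIGI) and MDA5 (from IFIH1), and respond by secreting interferon. Type I interferon acts through its receptor on JAK1 and TYK2, which activate STAT proteins. STAT2 joins IRF9 in a complex that binds the interferon-stimulated response element (ISRE) in the promoters of antiviral genes, while IRF1 and IRF7 bind related sites. MHC class I presents peptides at the cell surface: TAP1 and TAP2 carry peptides into the endoplasmic reticulum, tapasin (from TAPBP) holds the empty class I molecule at the transporter, and B2M pairs with the heavy chains from HLA-B, HLA-C and HLA-E.

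The shared promoter element is what ties most of these genes together, so the letters were searched in the 250 bases before to 50 bases after each start, from RefSeq on GRCh38.p14. The table held 26 of the 32 genes, in 33 entries; IFIT2, OAS2, OASL, MX2, IRF7 and HLA-E were not matched. The ISRE core, spelled GAAA, any 2 bases and GAAA, and searched on both strands, was present for 19 of 26 genes (73.1%) and in 1255 of all 35116 promoters of that length (3.57%). The GAS element, spelled TTC, any 3 bases and GAA, which reads the same on both strands, was present for 8 of 26 (30.8%) against 2689 promoters (7.66%). A gene was counted if any of its entries matched, while the shares over all promoters are per entry. The percentages of genes and of promoters are therefore not in the same unit. A GAS match overlapped an ISRE match in 3 genes. Shown here are 8 stretches upstream of the start with the ISRE core in capitals, in order of the genes' levels in the control, to let the same element be seen in genes at very different levels.
B2M (chr15:44711358-44711403, plus strand): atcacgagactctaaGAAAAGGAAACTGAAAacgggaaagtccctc
ISG15 (chr1:1013369-1013414, plus strand): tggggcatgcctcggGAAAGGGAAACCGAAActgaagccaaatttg
IFI6 (chr1:27672324-27672363, minus strand): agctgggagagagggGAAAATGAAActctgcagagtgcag
HERC5 (chr4:88456979-88457018, plus strand): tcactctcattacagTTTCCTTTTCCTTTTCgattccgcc
IFIT1 (chr10:89392492-89392544, plus strand): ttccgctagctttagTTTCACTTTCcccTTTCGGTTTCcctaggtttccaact
BST2 (chr19:17405730-17405775, minus strand): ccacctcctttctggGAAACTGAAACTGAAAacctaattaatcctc
RSAD2 (chr2:6877617-6877656, plus strand): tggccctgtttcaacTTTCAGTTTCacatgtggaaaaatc
TAP1 (chr6:32853808-32853853, minus strand): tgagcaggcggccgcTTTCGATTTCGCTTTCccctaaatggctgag
B2M heads this order at 336 FPKM, and RSAD2 and TAP1 close it, both listed at 0. RSAD2 and TAP1 each have another listed start whose window holds no ISRE core. TAP1 lies in the region of chromosome 6 whose values on that chromosome leave out fragments placed elsewhere, as described below, so its 0 is a listed value only. No match was found for OAS1, RIGI, STAT2, IRF1, IRF9, HLA-B or HLA-C, which says only that these letters are not in that window. A match is a description of sequence and not a site shown to be bound.

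Levels are given as FPKM, fragments scaled to exon length and to library depth, on the union of a gene's RefSeq exons. The control library held 16375019 fragments on the main chromosomes and the library labelled knockdown 19957498, recovered from the deposited values. USP49 itself was not lower in the library labelled knockdown by this measure: 0.903 FPKM (46.5 fragments) in the control and 1.10 FPKM (69 fragments) in the other. By the sum over transcript models it was 2.88 and 1.10 FPKM, from 206 and 69 fragments. The direction for the targeted gene therefore depends on the measure, and the libraries are called by their labels throughout. Epithelial markers were present in both (7 of 10 at 1 FPKM or more, summed level 662 and 604 FPKM, with VIL1 at 0). Of 8 leukocyte markers only CD68 reached 1 FPKM (9.35 and 12.6), their sum was 9.84 and 12.9 FPKM, and PTPRC was at 0. Fibroblast markers summed to 13.1 and 12.3 FPKM, with COL1A2 and DCN at 0, and endothelial markers to 0.181 and 0.137 FPKM, with CDH5 at 0. The part of these differences in the ratios below was not tested.

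In these cells the interferon and antigen presentation genes covered a wide range of levels. Of the 32 genes, 17 had a mean of 1 FPKM or more and are called measured; the fragment numbers of the others are given with their families below. Among these the level in the control differed 301-fold from the highest, B2M, to the lowest, IFIT2. Of the 17, 0 were 2-fold or more higher in the library labelled knockdown and 0 were 2-fold or more lower, where 0.313% and 0.494% of all 12151 genes measured were. Ratios are given as the log2 of (FPKM + 1) in the library labelled knockdown over (FPKM + 1) in the control, which understates the change of low genes. The median over the 17 was -0.0093, beside -0.0046 over all genes measured. Of the 17, 7 were above 0 and 10 below, and 15 lay within 0.25 of 0; without scaling to depth, 16 of 17 would be above 0, with upper quartile scaling 9 and with TPM 8. The extremes were IFI6 at -0.41 and ISG20 at 0.33, while the middle 95% of all genes measured ran from -0.31 to 0.25. The counting interval of the depth-scaled fragment ratio lay wholly above 1 for 0 of the 17 and wholly below 1 for 2 (IFI6 and IRF1). Over all genes measured 13% were wholly above and 14.1% wholly below, so the shares among the 17 were at or under the background. In bulk RNA, fewer cells with a transcript and less transcript per cell cannot be told apart.

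**Figure D1:**
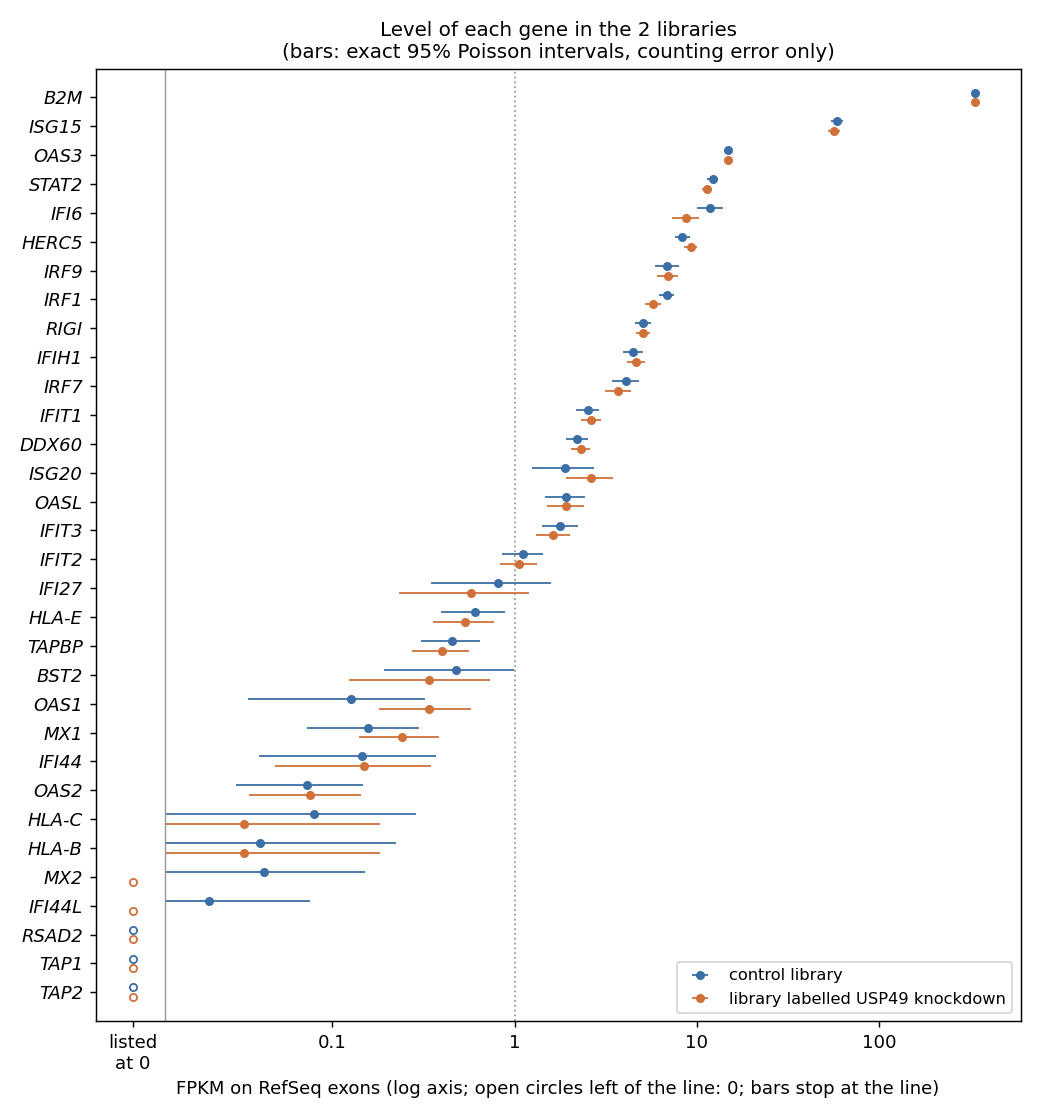
Level of each of the 32 genes in FPKM on RefSeq exons (log axis), with exact 95% Poisson intervals for counting error; blue is the control library, orange the library labelled USP49 knockdown, and open circles are genes listed at 0. B2M and ISG15 stand above the rest, 15 genes lie below a mean of 1 FPKM (dotted line), and RSAD2, TAP1 and TAP2 are at 0 in both.

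**Figure D2:**
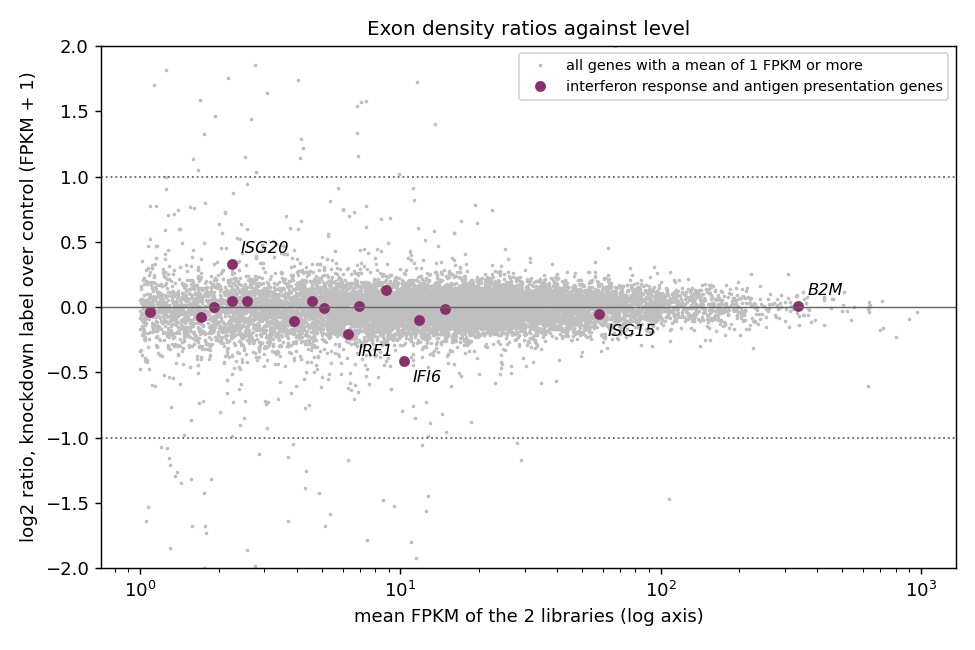
Log2 ratio of the libraries by exon density (FPKM + 1) against the mean FPKM (log axis) for 12151 genes in grey and the 17 measured genes in purple; 32 genes lie beyond the plotted range. All 17 sit between -0.41 (IFI6) and 0.33 (ISG20), inside the dotted 2-fold lines.

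The cytosolic RNA sensors were at a few FPKM, and by exon density none was separated between the libraries. RIGI, the sensor of short RNA with a 5′ triphosphate, was at 5.10 FPKM in the control (95% interval 4.61 to 5.64) and 5.06 (4.62 to 5.54) in the library labelled knockdown. IFIH1, which encodes the sensor of long double-stranded RNA, was at 4.47 (3.94 to 5.05) and 4.65 (4.16 to 5.18) FPKM. DDX60, a helicase linked to RIG-I signalling, was at 2.20 (1.92 to 2.52) and 2.32 (2.05 to 2.60) FPKM. The intervals of the libraries overlapped for all 3, and the fragment ratios were 1.00 (0.87 to 1.14) for RIGI, 1.04 (0.88 to 1.23) for IFIH1 and 1.05 (0.88 to 1.26) for DDX60. By the sum over models RIGI was at 8.21 and 5.06 FPKM (log2 ratio -0.60), and DDX60 turned to a log2 ratio of -0.37.

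Of the 4 transcription factors, IRF1 was the one whose counting interval lay off 1. STAT2, the STAT particular to type I and III interferon signalling, was at 12.2 (11.5 to 13.1) and 11.4 (10.7 to 12.1) FPKM, a fragment ratio of 0.93 (0.85 to 1.02). IRF9, its DNA-binding partner, was at 6.89 (5.93 to 7.96) and 6.94 (6.07 to 7.91) FPKM. IRF7, which amplifies interferon production, was at 4.08 (3.43 to 4.81) and 3.72 (3.15 to 4.35) FPKM. The values of these 3 overlapped between the libraries. IRF1, an early transcription factor that also acts on antigen presentation genes, was at 6.84 (6.18 to 7.55) FPKM in the control from 390 fragments and 5.78 (5.23 to 6.37) FPKM in the other from 403 fragments. Its fragment ratio was 0.85 (0.74 to 0.98) and its log2 ratio -0.21, which lay inside the middle 95% of all genes; without depth scaling the log2 ratio was 0.037.

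ISG15 was the second most abundant of the 32. ISG15 encodes a ubiquitin-like protein that is attached to other proteins, and HERC5 is the ligase that attaches it. ISG15 was at 59.0 (54.4 to 63.9) FPKM in the control from 598 fragments and 56.7 (52.6 to 61.1) FPKM in the library labelled knockdown from 701 fragments; 10.5% of all genes measured were higher than ISG15 in the control. HERC5 was at 8.36 (7.62 to 9.14) and 9.25 (8.55 to 10.0) FPKM. The fragment ratios were 0.96 (0.86 to 1.07) for ISG15 and 1.11 (0.98 to 1.25) for HERC5, so neither was separated from 1 by counting error. USP18, which removes ISG15 from proteins and is not among the 32, was at 2.30 and 3.28 FPKM, from 75 and 130 fragments, a ratio of 1.42 (1.06 to 1.92).

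The IFIT genes, whose products bind foreign RNA at its 5′ end, were low by exon density. IFIT1 was at 2.52 (2.18 to 2.90) and 2.63 (2.31 to 2.99) FPKM. IFIT3 was at 1.78 (1.41 to 2.23) and 1.63 (1.31 to 2.02) FPKM. IFIT2 was at 1.12 (0.857 to 1.43) and 1.06 (0.832 to 1.33) FPKM. The intervals of IFIT1 lay above those of IFIT2 in each library, while those of IFIT3 overlapped the intervals of IFIT1 in the control and of IFIT2 in both libraries. The fragment ratios ran from 0.92 (IFIT3) to 1.03 (IFIT1), with each interval containing 1. By the sum over models IFIT1 was at 2.71 and 5.995 FPKM, which is over 2-fold without the pseudocount.

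The OAS family, which makes the second messenger that activates RNase L, was split by level. OAS3 was at 14.9 (14.2 to 15.7) and 14.8 (14.2 to 15.5) FPKM from 1609 and 1944 fragments, a ratio of 0.99 (0.93 to 1.06). OASL, a family member without synthase activity, was at 1.92 (1.48 to 2.45) and 1.92 (1.52 to 2.39) FPKM. OAS1 had 4 fragments in the control and 13 in the other (0.127 and 0.337 FPKM; ratio 2.67, 0.82 to 11.2). OAS2 had 7.2 and 9.14 fragments (0.072 and 0.076 FPKM). OAS3 was therefore far above its neighbours OAS1 and OAS2, which lie beside it on chromosome 12 (hg18 starts at 111829122 for OAS1, 111860632 for OAS3 and 111900657 for OAS2). The OAS genes resemble one another, as do the IFIT genes and the class I heavy chains, and how reads that align to several of them were counted is not given in the sources used here.

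By exon density IFI6 and ISG20 had the largest ratios of the 17. IFI6, a small membrane protein that protects the endoplasmic reticulum from viral remodelling, was at 11.9 (10.1 to 13.9) FPKM in the control from 158 fragments and 8.70 (7.33 to 10.3) FPKM in the library labelled knockdown from 141 fragments. Its log2 ratio was -0.41 and its fragment ratio 0.73 (0.58 to 0.92), lower also without depth scaling (-0.15). ISG20, a 3′ to 5′ exonuclease, was at 1.88 (1.25 to 2.72) and 2.62 (1.92 to 3.48) FPKM from 28 and 47 fragments. The libraries overlapped for ISG20, with a ratio of 1.38 (0.85 to 2.28).

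Other antiviral genes that interferon strongly raises in many cells were close to 0 in both libraries. IFI27 had 8 and 7 fragments (0.808 and 0.580 FPKM), and BST2, which tethers budding virions to the cell, had 7 and 6 (0.479 and 0.337 FPKM). MX1, a dynamin-like GTPase that blocks influenza virus, had 9.14 and 17.1 fragments (0.157 and 0.241 FPKM; ratio 1.53, 0.65 to 3.87). IFI44 had 4 and 5 fragments. MX2 and IFI44L each had 2 fragments in the control and 0 in the other. RSAD2, which encodes viperin, had 0 in both, where 3 fragments would be 0.0529 FPKM in the control and 0.0434 FPKM in the other. At this depth no difference could be detected for these genes.

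Antigen presentation genes split into B2M, at the top of the whole group, and the 6 genes of chromosome 6, all below 1 FPKM on that chromosome. B2M, on chromosome 15 (hg18 42790977 to 42797649), was at 336 (327 to 346) FPKM in the control from 5178 fragments and 339 (330 to 347) FPKM in the other from 6315 fragments. Only 0.329% of genes measured were higher, and the fragment ratio was 1.00 (0.96 to 1.04).

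The deposited files also list models on alternative sequences of the MHC region, which values on chromosome 6 alone leave out. HLA-B had 1 fragment in each library on chromosome 6, and 50 and 55 on the alternative sequence cox hap1, and 377 and 413 on qbl hap2. HLA-C had 2 and 1 fragments on chromosome 6, 81 and 88 on cox hap1, and 466 and 449 on qbl hap2. Over all 3 sequences HLA-B had 428 and 469 fragments, which is 17.1 and 15.4 FPKM and a ratio of 0.90 (0.79 to 1.03). HLA-C had 549 and 538 fragments in all, 21.8 and 17.5 FPKM, a log2 ratio of -0.30 and a fragment ratio of 0.80 (0.71 to 0.91). That log2 ratio lay inside the middle 95% of all genes measured, of which 14.1% had a fragment ratio interval wholly below 1. With these sequences added, both heavy chains were above the minimum of 1 FPKM in each library; this sum was chosen after the data were seen.

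**Figure D3:**
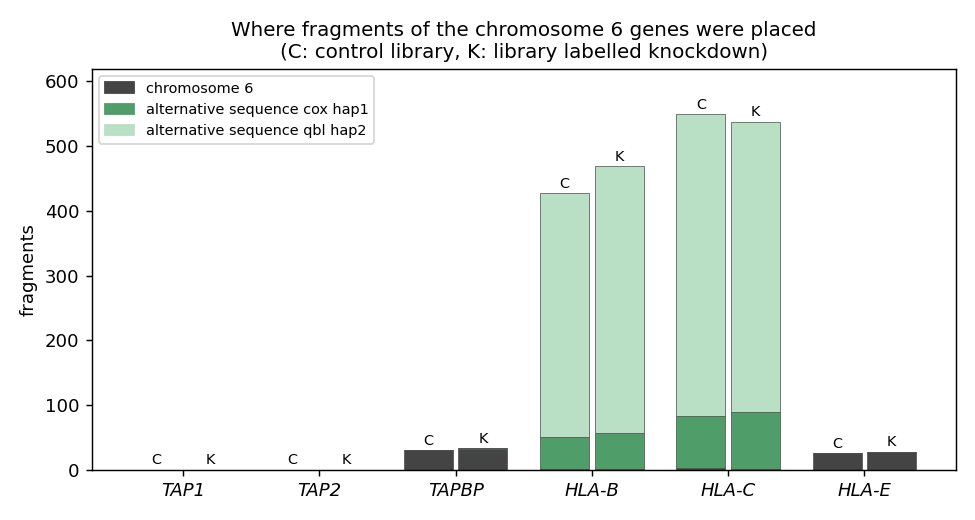
Fragments of the 6 chromosome 6 genes by the reference sequence they were placed on, in the control library (C) and the library labelled knockdown (K). For HLA-B and HLA-C nearly all fragments stand on the alternative sequences (427 and 468 for HLA-B, 547 and 537 for HLA-C), and TAP1 and TAP2 have none on any of the 3.

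HLA-E, which presents signal peptides to natural killer cells, had 26 and 28 fragments, all on chromosome 6 (0.607 and 0.537 FPKM). TAPBP had 30 and 32 fragments on chromosome 6 and 0 and 1 on the alternative sequences (0.455 and 0.398 FPKM on chromosome 6). TAP1 and TAP2 are listed at 0 on all 3 sequences in both libraries, and TAP1 shares 456 exonic bases with PSMB8-AS1. Zeros on chromosome 6 itself were frequent among the neighbours: of 201 chromosome 6 genes with a RefSeq model also on an alternative sequence, 155 (77.1%) were at 0 in both libraries and 1 (0.498%) had a mean of 1 FPKM or more. Of the 1002 chromosome 6 genes with no such second copy, 228 (22.8%) were at 0 and 514 (51.3%) reached that mean. Genes in use in most cells, chosen after their values were seen, were also at 0 on chromosome 6: RPS18, TUBB, DDX39B and BAG6, of which TUBB had 86 and 81 fragments on the alternative sequences. HLA-E and TAPBP also have RefSeq models on the alternative sequences and so belong to the 201. The zeros of TAP1 and TAP2 and the low values of HLA-E and TAPBP are therefore given only as listed values.

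Transcript models were assembled for each library separately, and the listed structures are described here gene by gene. In each library 54 RefSeq models of the 32 genes are listed. Of these 34 had a value above 0 in the control and 31 in the other, beside 11 and 10 assembled models for 5 and 8 genes. Counting models with 5% or more of a gene's fragments, the sets of introns differed for 9 of the 17 measured genes, where 56.5% of all genes measured differed; the share among the 17 was therefore no higher than the background. The 9 were IFIT1, ISG20, OAS3, IFIH1, RIGI, IRF1, IRF7, DDX60 and B2M. The 8 with the same sets were IFIT2, IFIT3, ISG15, OASL, IFI6, STAT2, IRF9 and HERC5.

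**Figure D4:**
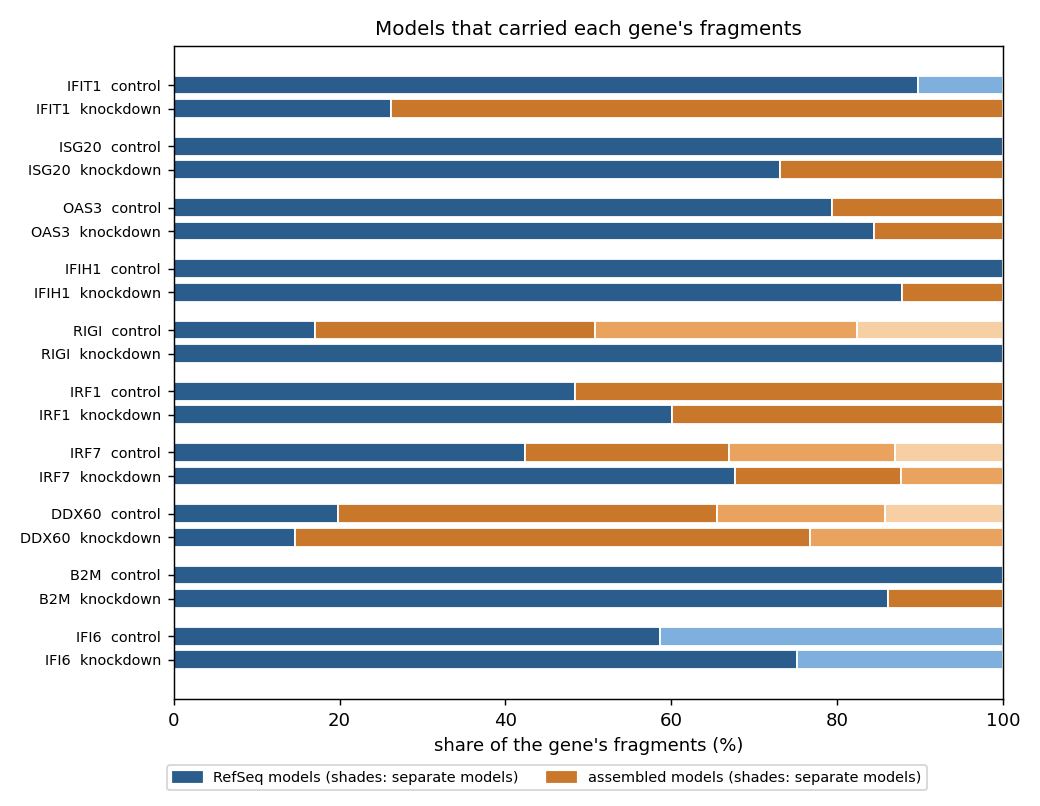
Share of each gene's fragments (%) carried by RefSeq models (blue) and by assembled models (orange) in each library, for the 9 genes whose intron sets differed and for IFI6. RIGI goes from 17.0% on its RefSeq model in the control to 100% in the library labelled knockdown, and IFIT1 from no assembled model to 73.8% on one.

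For IFIT1 the control placed 173 fragments on NM_001548 and 19.8 on NM_001270929. The library labelled knockdown placed 65.5 on NM_001548 and 184 on an assembled model of 1812 bases that ends 2576 bases before the RefSeq 3′ end. Because that model is short, its deposited density, scaled to depth, was 5.24 FPKM (4.42 to 6.05), and the sum over models had a log2 ratio of 0.91, against 0.046 by exon density.

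For RIGI the reverse was listed. The control split its fragments over the RefSeq model (67.5) and 3 assembled models (134, 125 and 69.7), of which the one with 125 stops 17595 bases of genome before the RefSeq 3′ end. The library labelled knockdown had 476 fragments on the RefSeq model NM_014314 alone. The log2 ratio was -0.60 by the sum over models and -0.0093 by exon density. DDX60 had 4 counted models in the control and 3 in the other, 2 of the intron sets were shared, and its log2 ratio was -0.37 by the sum and 0.049 by exon density.

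For B2M the library labelled knockdown had, beside 5450 fragments on NM_004048, 882 fragments (13.9%) on an assembled model of 528 bases with 1 intron that RefSeq does not list. That model starts 1467 bases of genome downstream of the RefSeq start, and the control had all 5178 fragments on NM_004048. The sum over models was 336 and 382 FPKM, a log2 ratio of 0.18 against 0.0099 by exon density. OAS3 had an assembled model in each library, with 332 and 303 fragments, and each held 1 intron outside RefSeq.

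IRF1 had in each library an assembled model that ends well before the RefSeq 3′ end, 1601 bases short in the control (201 fragments) and 1605 bases short in the other (170 fragments). The control's model holds 1 intron that RefSeq does not list, while that of the library labelled knockdown keeps a RefSeq intron of 183 bases inside an exon (hg18 chromosome 5, 131849965 to 131850147). IRF7 had 3 and 2 assembled models beside NM_001572, which carried 63.5 and 106 fragments. Its models enclosed 2 RefSeq introns in the control, of 262 and 89 bases, and 2 others in the library labelled knockdown, of 88 and 76 bases, from models with 30.0 and 31.5 fragments. Of the 187 RefSeq introns of the 17 measured genes, 2 (1.07%) lay inside a model's exon in the control and 3 (1.60%) in the library labelled knockdown, where 1.58% and 1.53% of 136891 introns of all genes measured did. ISG20 and IFIH1 had an assembled model only in the library labelled knockdown, with 12.6 and 41.2 fragments.

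**Figure D5:**
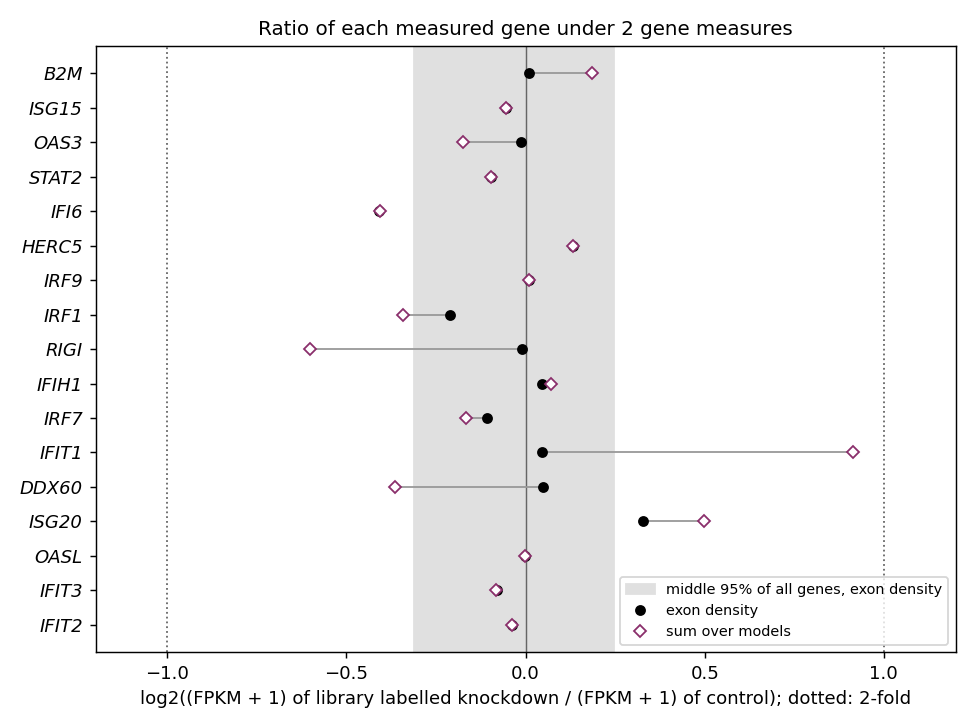
Log2 ratio (FPKM + 1) of the 17 measured genes by exon density (black) and by the sum over models (open diamonds), with the middle 95% of all genes by exon density in grey. The measures are more than 0.25 apart for 3 genes, IFIT1 (0.046 and 0.91), RIGI (-0.0093 and -0.60) and DDX60 (0.049 and -0.37), and all points lie inside the dotted 2-fold lines.

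By the sum over models, on the scale of FPKM + 1, 0 of the 17 were past 2-fold in either direction, where 1.43% of 11730 genes were higher and 1.6% lower. The 6 largest ratios by that sum were IFIT1 (0.91), RIGI (-0.60), ISG20 (0.50), IFI6 (-0.41), DDX60 (-0.37) and IRF1 (-0.34). The 6 largest by exon density were IFI6, ISG20, IRF1, HERC5 (0.13), IRF7 (-0.11) and STAT2 (-0.096). IFI6, ISG20 and IRF1 stand in both sets.

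IFI6 was the gene in which known RefSeq forms took different shares while the intron sets stayed the same. Its forms differ at the end of the second exon (hg18 chromosome 1, minus strand), where the exon is 102 bases long in NM_002038, 114 in NM_022872 and 126 in NM_022873. The junction is shown from the GENCODE version 29 transcripts (GRCh38), with the 12 bases that NM_022872 adds in capitals and the flanking exons in lower case.
IFI6 NM_002038: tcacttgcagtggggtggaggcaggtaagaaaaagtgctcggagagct
IFI6 NM_022872: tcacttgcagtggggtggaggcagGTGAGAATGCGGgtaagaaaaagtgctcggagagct
NM_002038 had 92.5 fragments in the control (58.6%) and 106 in the library labelled knockdown (75.1%), at 7.16 (5.40 to 8.92) and 6.73 (5.28 to 8.18) FPKM by the authors' interval, scaled to depth. NM_022872 had 65.5 (41.4%) and 35.05 (24.9%), at 4.99 (3.45 to 6.53) and 2.19 (1.22 to 3.16) FPKM. The intervals of NM_002038 overlapped between the libraries, and those of NM_022872 did not. NM_022873 was at 0 in both. The split rests on the authors' assignment of fragments to forms that share all but these bases, and whether the difference exceeds the spread between cultures was not tested.

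At lower depth the listed form also switched. OAS1 had its 4 control fragments on NM_001032409 (1565 bases) and its 13 in the other library on NM_016816 (1663 bases). IFI27 had its 8 control fragments on NM_005532 (652 bases) and its 7 in the other library on NM_001130080 (648 bases). With so few fragments no difference in form was detectable.

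By exon density, the measure of this paragraph unless said otherwise, the rest of the pathway also held no measured gene past 2-fold. Over all 12151 genes measured, 0.313% were 2-fold or more higher and 0.494% lower, so a count of 0 is no departure from the background. Of all genes measured, 5891 were above 0 and 6260 below. Of 26 other receptors, kinases, sensors and regulators 24 were measured, 12 above and 12 below 0, with 0 past 2-fold and a median log2 ratio of -0.0014. The largest ratios were USP18 (0.37), SOCS1, a feedback inhibitor of JAK kinases (-0.28), and IKBKE, a kinase of interferon induction (-0.20). SOCS1 rests on 40 and 36 fragments, a fragment ratio of 0.74 (0.46 to 1.19), and IKBKE on 156 in each library, 0.82 (0.65 to 1.03). Both intervals contain 1, while that of USP18, given above, does not. Of 36 other interferon-stimulated genes 24 were measured, 13 above and 11 below 0, with a median of 0.0011 and 0 past 2-fold, and 6 were at 0 in both. EIF2AK2, the RNA-activated kinase PKR, was at 14.3 and 18.1 FPKM (0.33), IFITM1 at 0.874 and 1.35 FPKM (0.32) and IFITM2 at 33.8 and 28.0 FPKM (-0.26). IFITM1 rests on 9.61 and 18 fragments, a fragment ratio of 1.54 (0.67 to 3.79) whose interval contains 1. Those of EIF2AK2 (1.27, 1.17 to 1.37) and IFITM2 (0.83, 0.72 to 0.96) do not contain 1. Also off 1 in this list were IFITM3 (0.69, 0.60 to 0.80), PML (0.83, 0.75 to 0.92), SAMD9 (1.21, 1.09 to 1.35) and SP100 (1.12, 1.03 to 1.21). Such intervals were common: over all genes measured 13% lay wholly above 1 and 14.1% wholly below. IFITM1 and IFITM2 encode inhibitors of viral entry and are close in sequence, so how shared reads were counted bears on both. Of 23 other antigen presentation genes 13 were measured, 3 above and 10 below 0, with a median of -0.089 and 0 past 2-fold. RFXANK, a subunit of the factor that binds MHC promoters, was at 33.9 and 42.8 FPKM (0.33), and PSME2, a proteasome activator subunit, at 19.7 and 16.9 FPKM (-0.21). The fragment ratio was 1.25 (1.14 to 1.38) for RFXANK and 0.86 (0.72 to 1.03) for PSME2, whose interval contains 1. Ratios in these lists depend on the measure too. By the sum over models the log2 ratio of NLRC5 turned from -0.12 to 0.77. That of PSMB10 went from -0.089 to -0.91, of IFITM3 from -0.16 to -0.63 and of RFXANK from 0.33 to 0.69. Of 8 interferon genes 7 were at 0 in both libraries, and IFNE, an epithelial interferon, had 9 and 6 fragments.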

How the data were processed

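The 2 polyA RNA-seq libraries, 1 per group, were used as the authors' deposited transcript assemblies on hg18; TopHat, Bowtie, SAMtools, Picard, Cufflinks and bedtools are named in the submitters' processing notes, without versions. The members and gene lists were chosen with earlier results of these data known. Per the file headers' attributes the deposited value of a model is FPKM, but the values were taken as not divided by depth. Fragments of RefSeq and spliced models were recovered as value × 2 × (length - 47 bases), divided by the constant of the FPKM unit. This gave for ISG15 the whole numbers 598 and 701. For loci with 1 model, the number implied by the deposited interval was whole (within 0.02) for 94.9% of 18291 control and 94.5% of 19627 other loci. That share uses neither length nor depth, so it does not bear on the depth scaling. Recovered fragments were spread evenly over each model and counted on the union of a gene's RefSeq exons, then scaled to the library total (exon density). Models of either strand were counted, since the kit as described does not mark strand. The sum over models was scaled to depth too. Exon density was chosen as the main measure because the sum depends on which models each library assembled. RefSeq identifiers were named through RefSeq (39319), the file's own symbols (712) or GENCODE 29 (282), and 844 stayed unnamed. Genes with a mean of 1 FPKM and 300 exonic bases were measured; ratios use a pseudocount of 1 FPKM. Intervals are exact 95% Poisson or conditional binomial intervals of fragment numbers (Python 3.11.15, scipy 1.17.1). A check simulated the control library against itself at 1.2 times the depth, with 200 genes changed 4-fold among 12139 measured. The changed genes were drawn only from those with a mean of 5 FPKM or more. It placed 197 of the changed genes and 16 unchanged genes past 2-fold. Both simulated libraries came from the control, so the check cannot show what separate assembly of each library does to the ratios. The recovery of changed genes therefore says nothing about genes under 5 FPKM. The count of unchanged genes was not split by level, so it does not speak for low genes alone. All 32 members are named; levels are given for those with a mean of 1 FPKM or 10 fragments, and structures for those whose models differ and for the 6 largest ratios. Outside the list, the 3 largest ratios per list and defining genes at 0 are named, except for items not reported here. OAS2, IFI27, BST2, IFI44, MX2, IFI44L, HLA-B and HLA-C fall under these limits and were given by their fragments after their values were seen. NLRC5, PSMB10, IFITM3, PML, SAMD9 and SP100 are not among the 3 largest of their lists and were also named after their values were seen. Alternatives were the sum over models, the rule's models alone, another pseudocount, scaling and minimum.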

Additional observations from a re-analysis of the deposited data

How the results depend on the processing

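The counts of genes 2-fold higher and 2-fold lower stayed at 0 among the measured genes under the sum over models, exon density from the rule's own models, a pseudocount of 0.1 FPKM, no depth scaling, upper quartile scaling, TPM (21 genes) and a minimum of 5 FPKM (9 genes). With no minimum (29 genes) it was also 0, but the pseudocount of 1 FPKM holds the added low genes near 0 (OAS1, a fragment ratio of 2.67, has a log2 ratio of 0.25), so that count says nothing about stability. The count of 0 under the sum over models also rests on that pseudocount. There IFIT1 was at 2.71 and 5.995 FPKM, over 2-fold without it. The median log2 ratio was -0.0093 as reported, -0.055 by the sum over models, -0.011 with the smaller pseudocount, -0.051 with TPM and -0.013 with either other minimum. Without depth scaling it was 0.23, where the median of all genes moved to 0.25. Of 17 gene values, 5 moved beyond their counting interval by the sum over models (IFIT1, OAS3, RIGI, DDX60 and B2M) and 7 without depth scaling, all of the latter higher. The 9 genes with differing intron sets were 9 also at a minimum share of 0% and of 10%, and the enclosed introns stayed at 2 and 3 with models of 5 fragments or more. Adding the alternative chromosome 6 sequences, chosen after seeing the data, gave log2 ratios of -0.14 for HLA-B and -0.30 for HLA-C in place of -0.010 and -0.064. No paired analysis was possible because each group has 1 library. Genes with few fragments limit what can be seen: ISG20 rests on 28 and 47 fragments.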
